A study of Mus musculus with 24 samples.

Results

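The genes described here encode the lecticans brevican, neurocan and versican (Bcan, Ncan and Vcan), the tenascins R and C (Tnr and Tnc), and the link proteins Hapln1 and Hapln2. They were a list of 7 genes, taken by symbol, and all 7 were found among the 55359 gene rows of the count table. Values were compared over 4 groups of 6 wells of C57BL6/J mouse oligodendrocytes, which were sorted with an O4 antibody from cortices of pups at postnatal days 5 to 7 and differentiated for 3 days with triiodothyronine as the main factor. In experiment 1, 6 wells were then kept for 3 days with 30 mM ethanol and 6 control wells with 0 mM. In experiment 2, 6 wells were kept for 3 days with 10 mM ethanol and 6 control wells with 0 mM. The experiments are separate batches in the labels, and controls stood in another incubator, so ethanol cannot be told apart from incubator, nor dose from experiment.

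Lecticans are chondroitin sulphate proteoglycans that bind hyaluronan at one end and tenascins at the other. Link proteins hold the lectican to hyaluronan, and tenascin-R crosslinks several lecticans into a mesh. In brain this matrix surrounds synapses, perineuronal nets and nodes of Ranvier, and oligodendrocyte precursors, young oligodendrocytes, astrocytes and some neurons are known sources of it.

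In these cultures Bcan was higher and Tnc lower with 30 mM ethanol than in the matched controls, by 22.8% and 42.7%. Bcan also passed the test at 10 mM, by 16.9%, but that call was lost when any of 7 single wells was left out. Ncan, Vcan and Tnr did not pass at either dose, and Hapln1 and Hapln2, which were below the filter on low counts at both doses, did not pass when they were fitted without it. The upstream sequences of 3 of the genes are shown for reference: those of Bcan and Tnc, the members that passed, and that of Hapln2, which in the RefSeq gene order of GRCm38.p6 is next to Bcan with 0 protein-coding genes between them, although its level was far lower. Capitals mark every match, on either strand, to the TATA box (letters TATAAA), the GC box (GGGCGG), the SOX motif (ACAAAG), the TEAD motif (GGAATG), the AP-1 motif (TGANTCA) or the CArG box; no matches overlapped in these stretches. Each run is the stretch of 250 bases before the start site in RefSeq's promoter table for GRCm38.p6, which had entries for all 7 members. They are chr3:88000357-88000606, minus strand, for Bcan, chr4:64046937-64047186, minus strand, for the downstream of the listed Tnc starts, and chr3:88027512-88027761, minus strand, for Hapln2.
Bcan: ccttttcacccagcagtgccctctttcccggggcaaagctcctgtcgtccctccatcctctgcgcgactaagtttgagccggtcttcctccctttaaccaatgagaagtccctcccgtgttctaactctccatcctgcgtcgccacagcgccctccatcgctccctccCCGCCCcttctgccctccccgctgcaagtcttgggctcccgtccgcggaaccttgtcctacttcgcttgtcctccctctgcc
Tnc: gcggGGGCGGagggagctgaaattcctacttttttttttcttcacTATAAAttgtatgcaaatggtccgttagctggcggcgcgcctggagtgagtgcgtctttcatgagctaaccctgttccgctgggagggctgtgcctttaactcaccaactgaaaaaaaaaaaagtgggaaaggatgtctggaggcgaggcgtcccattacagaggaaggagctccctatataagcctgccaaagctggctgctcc
Hapln2: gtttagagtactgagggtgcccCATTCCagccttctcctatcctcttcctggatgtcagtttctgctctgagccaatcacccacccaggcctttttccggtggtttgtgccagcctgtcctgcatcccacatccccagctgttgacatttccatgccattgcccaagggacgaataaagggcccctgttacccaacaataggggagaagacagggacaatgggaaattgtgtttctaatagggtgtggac
In the Bcan stretch only the GC box letters were found, and in the Hapln2 stretch the TEAD motif. The Tnc stretch held the GC box letters at -246 to -241 and TATAAA at -205 to -200 from the start site. Variants of these letters, such as the unmarked tatataag nearer the Tnc start, were not searched. Among 32851 stretches of this length in the table, 32.7% held the GC box, 12.4% the TATA box, 12.6% the TEAD motif, 16.5% the SOX motif, 6.75% the AP-1 motif and 1.47% the CArG box. These are matches of letters only, and the capitals say nothing of binding.

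Each well had between 1184609 and 1817028 counts in total, and between 24319 and 27063 genes with at least 1 count. Values are given in CPM, counts scaled to a common library size after TMM scaling over all 24 wells. A floor of 3 counts was between 1.67 and 2.50 CPM. As a check of the label, the summed level of 10 mature oligodendrocyte markers was between 4680 and 6016 CPM over the control wells of both experiments. That of 10 astrocyte markers was between 3988 and 5020 CPM, and that of 10 microglia markers between 167.7 and 278.0 CPM in experiment 1 and between 1697 and 2096 CPM in experiment 2. No marker of the 8 lists was at 0 in all wells of a group. Replicate 1 at 30 mM had the highest summed mature oligodendrocyte level, 11367 CPM, where the median of its group was 6763 CPM.

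The order of the members was similar in all groups. Reads came from the 3′ ends of transcripts, about 1 tag for each transcript, so the levels were compared without division by length. In the controls of experiment 1, Ncan had 689 ± 62.9 CPM, Bcan 327 ± 30.6, Tnc 188 ± 27.8, Tnr 46.5 ± 2.79 and Vcan 33.7 ± 6.20 (SD, n = 6 for each). Hapln1 had 3.61 ± 1.44 CPM and Hapln2 3.36 ± 1.25 CPM (SD, n = 6), close to the floor. Ncan was above Bcan in every well of every group, and Bcan above Tnc. Tnc and Tnr overlapped in the controls of experiment 2, where their means were 82.5 and 80.0 CPM, and at 10 mM, where they were 77.5 and 76.9 CPM. Tnr and Vcan overlapped only at 30 mM. The link proteins overlapped each other in all 4 groups, and every well of Vcan was above every well of both.

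**Figure D1:**
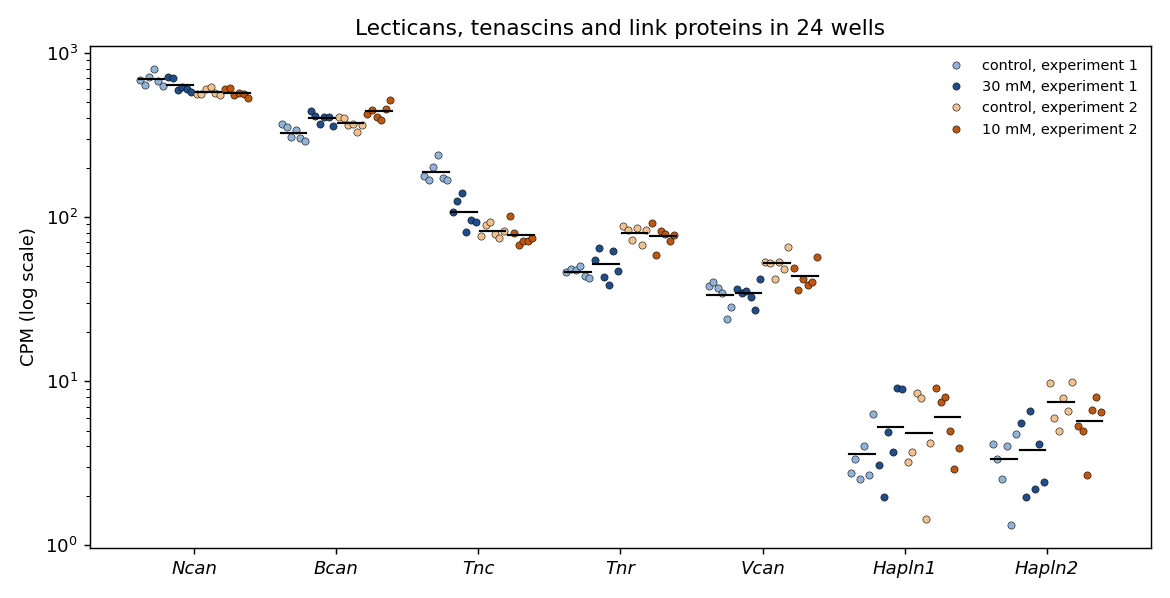
Level of the 7 genes in each of the 24 wells, in CPM on a log axis; each point is 1 well, colours are the 4 groups, and black lines are group means. Ncan and Bcan lie highest, Hapln1 and Hapln2 lie near the floor of 1.67 to 2.50 CPM, and the Tnc wells of experiment 1 with 30 mM lie below all 6 of their controls.

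The lecticans were compared first. Brevican is the lectican typical of the adult brain, and its gene yields a secreted form and a shorter membrane-anchored form, which counts per gene do not separate. At 30 mM, Bcan (ENSMUSG00000004892) ranged from 360 to 440 CPM with a median of 406 CPM, and in the controls from 291 to 368 CPM with a median of 323 CPM. Of the 6 ethanol wells, 5 were above every control and 1 lay within their range. The log2 fold change was 0.30 (SE 0.0653, 95% interval 0.16 to 0.43, edgeR adjusted p = 0.00170). Of all 13235 genes tested at 30 mM, 9.67% passed, 3.02% higher and 6.65% lower, and of the 5 members tested 2 did, Bcan higher and Tnc lower. In bulk samples such as these, fewer cells of a type and less RNA per cell cannot be told apart.

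At 10 mM, Bcan ranged from 390 to 519 CPM with a median of 436 CPM, and in its controls from 330 to 406 CPM with a median of 368 CPM. Here 4 of the 6 ethanol wells were above every control. The log2 fold change was 0.23 (SE 0.0586, 95% interval 0.11 to 0.34, edgeR adjusted p = 0.0416), where 0.657% of 13538 genes passed, 0.391% higher. Bcan was the only 1 of 5 tested members to pass. The adjusted p rose above the threshold of 0.05 without ethanol replicate 2 (0.0931), 5 (0.0918) or 6 (0.136), and without control replicate 3 (0.0739), 4 (0.0797), 5 (0.172) or 6 (0.0986). In the same 12 fits that each left out a well, the log2 fold change stayed between 0.18 and 0.26.

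Neurocan is the lectican of the developing brain and was the most abundant member. At 30 mM, Ncan (ENSMUSG00000002341) ranged from 578 to 708 CPM with a median of 613 CPM, and in its controls from 627 to 799.9 CPM with a median of 676 CPM. The groups overlapped, with 4 of 6 ethanol wells below every control, and the log2 fold change of -0.11 did not pass (95% interval -0.23 to 0.02, edgeR adjusted p = 0.292). At 10 mM, Ncan had 572 ± 30.1 CPM and its controls 577 ± 26.3 CPM (SD, n = 6 each), a log2 fold change of -0.03 (95% interval -0.13 to 0.08, edgeR adjusted p = 0.921).

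Versican is the lectican of precursors and of many non-neural tissues, and its splice forms are not separated by counts per gene. Vcan (ENSMUSG00000021614) had 34.6 ± 4.91 CPM at 30 mM and 33.7 ± 6.20 CPM in the controls (SD, n = 6 each). The log2 fold change was 0.04 (95% interval -0.23 to 0.32, edgeR adjusted p = 0.890), and its sign turned without ethanol replicate 6 (-0.02) or control replicate 5 (-0.04). At 10 mM, Vcan ranged from 35.8 to 57.4 CPM with a median of 41.0 CPM, and in the controls from 41.7 to 65.2 CPM with a median of 52.7 CPM. There 4 of 6 ethanol wells were below every control, and the log2 fold change of -0.27 did not pass (95% interval -0.49 to -0.05, edgeR adjusted p = 0.357). Its unadjusted p was 0.0177, in a comparison where 10.1% of genes had an unadjusted p under 0.05.

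The make-up of the lectican counts was then described within each well, where library scaling cancels. In experiment 1, Bcan made up 31.1% ± 2.33 of the counts of the 4 lectican genes in controls and 37.3% ± 1.12 at 30 mM (SD, n = 6 each). For Ncan the shares were 65.5% ± 2.66 and 59.2% ± 0.981, and for Vcan 3.20% ± 0.522 and 3.25% ± 0.587. Acan, the gene of aggrecan, a lectican of cartilage and of perineuronal nets, held 0.174% ± 0.0957 and 0.271% ± 0.130. There were between 0.422 and 0.554 Bcan counts for each Ncan count in the controls and between 0.589 and 0.669 at 30 mM, so these wells did not overlap. In experiment 2 the ratio ran from 0.577 to 0.726 in controls and from 0.690 to 0.974 at 10 mM, which overlapped. The ratio is made of members whose changes were known, and no test was run on it.

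**Figure D2:**
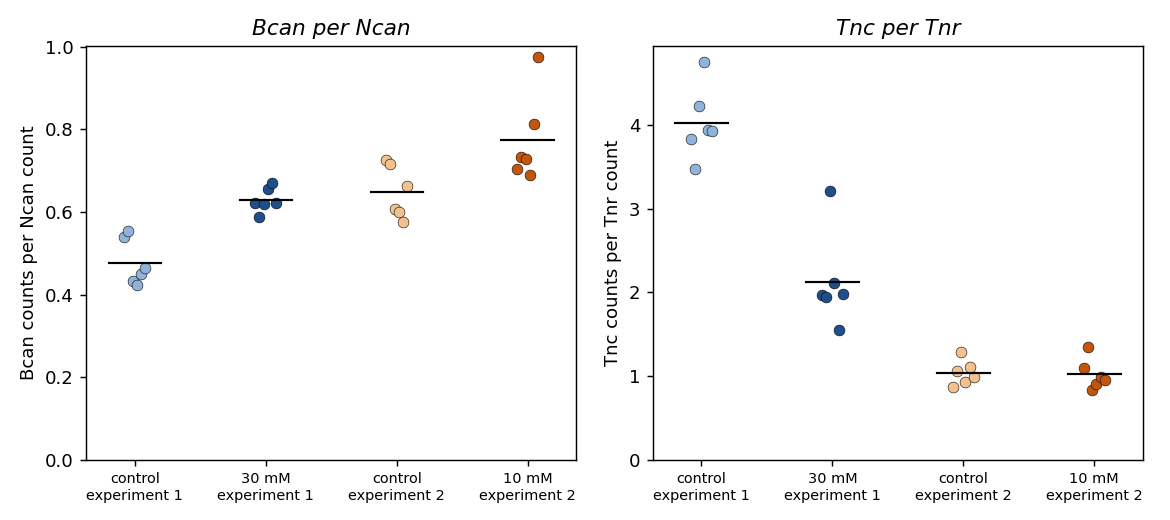
Counts of Bcan for each count of Ncan (left) and of Tnc for each count of Tnr (right), by group on the x axis; each point is 1 well and black lines are group means. In experiment 1 the ethanol and control wells do not overlap in either panel, and in experiment 2 they overlap in both. Both ratios are made of members whose changes were known, and no test was run on them. The Tnc wells of experiment 1 did not overlap on their own either.

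The tenascins differed from each other. Tenascin-C is a large glycoprotein of immature astrocytes, precursors and fibroblasts that is known to hold back the maturation of oligodendrocytes. At 30 mM, Tnc (ENSMUSG00000028364) ranged from 81.2 to 139 CPM with a median of 102 CPM, and in its controls from 167 to 239 CPM with a median of 175 CPM. All 6 ethanol wells were below all 6 controls, which held in this direction for 3.1% of genes and in either for 4.1%. The log2 fold change was -0.80 (SE 0.0963, 95% interval -0.999 to -0.61, edgeR adjusted p = 5.91e-08). It ranked 35 by p among the 13235 genes tested, and it passed in each of the 12 fits that left out a well, with log2 fold changes from -0.88 to -0.73.

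At 10 mM, Tnc ranged from 67.8 to 101 CPM with a median of 72.7 CPM, and in its controls from 74.9 to 93.3 CPM with a median of 80.6 CPM. Of the ethanol wells, 4 were below and 1 was above every control. The log2 fold change of -0.11 did not pass (95% interval -0.29 to 0.07, edgeR adjusted p = 0.732). No member had all its wells apart at 10 mM, which held for 0.813% of genes. The highest of these wells, replicate 1, stood apart from the other 5, which had between 67.8 and 79.8 CPM.

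Tenascin-R is made in brain mainly by oligodendrocyte lineage cells and some interneurons, and it binds the lecticans and contactin. Tnr (ENSMUSG00000015829) ranged from 38.4 to 64.5 CPM at 30 mM with a median of 50.9 CPM, and from 42.7 to 50.2 CPM in the controls with a median of 46.9 CPM. The ethanol wells spread on both sides of the controls, 3 above all of them and 1 below. The log2 fold change of 0.16 did not pass (95% interval -0.07 to 0.39, edgeR adjusted p = 0.420). At 10 mM Tnr had 76.9 ± 10.9 CPM and its controls 80.0 ± 7.96 CPM (SD, n = 6 each), a log2 fold change of -0.06 (95% interval -0.24 to 0.11, edgeR adjusted p = 0.875). Within wells, there were 4.02 ± 0.429 Tnc counts for each Tnr count in the controls of experiment 1 and 2.13 ± 0.563 at 30 mM (SD, n = 6 each). In experiment 2 this ratio was 1.04 ± 0.145 in controls and 1.02 ± 0.185 at 10 mM (SD, n = 6 each). The ratio of Tnc to Tnr is also made of members whose changes were known, and it was not tested.

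**Figure D3:**
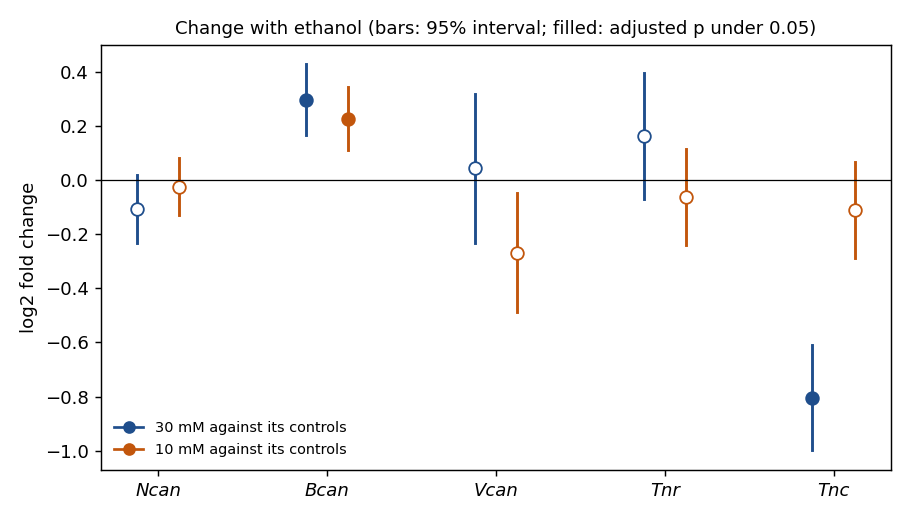
Log2 fold change of the 5 tested members with 30 mM and with 10 mM ethanol, each against its own controls; vertical bars are 95% intervals and filled points passed an adjusted p of 0.05. Bcan is filled at both doses (0.30 and 0.23) and Tnc only at 30 mM (-0.80).

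The link proteins had few counts. Hapln1 is the link protein of cartilage and of perineuronal nets, and Hapln2, also called Bral1, is known at nodes of Ranvier, where it is made by oligodendrocytes. Over 6 wells each, Hapln1 (ENSMUSG00000021613) had 41 counts at 30 mM and 32 in its controls, and 52 counts at 10 mM and 40 in its controls. For Hapln2 (ENSMUSG00000004894) the sums were 31 and 30 in experiment 1, and 50 and 63 in experiment 2. Single wells held between 2 and 15 counts of either gene, and ethanol wells overlapped their controls in both experiments. Neither passed the filter on low counts at 30 mM or 10 mM. Fitted without the filter, Hapln1 had a log2 fold change of 0.48 at 30 mM (SE 0.399, edgeR adjusted p = 0.542) and of 0.33 at 10 mM (SE 0.327, edgeR adjusted p = 0.722). For Hapln2 these were 0.16 at 30 mM (SE 0.431, edgeR adjusted p = 0.888) and -0.37 at 10 mM (SE 0.293, edgeR adjusted p = 0.651). The standard errors were wider than those of the 5 tested members. The Bcan counts of the same wells were between 368 and 797.

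The change itself was compared between the doses in 1 fit of all 24 wells, an interaction in which dose and experiment cannot be told apart. Tnc differed, with a log2 fold change lower by 0.71 at 30 mM than at 10 mM (difference -0.71, SE 0.141, 95% interval -0.99 to -0.43, edgeR adjusted p = 0.000883). The 2 changes started from different levels. Mean Tnc was 188 CPM in the controls of experiment 1 and 82.5 CPM in those of experiment 2. At 30 mM it was 107 CPM, still above the controls of experiment 2. Of 14655 genes, 3.28% passed this test and 2.4% of the 14655 with the lower value at 30 mM, and of the 6 members tested Tnc alone passed. For Bcan the difference was 0.06 (95% interval -0.13 to 0.25, edgeR adjusted p = 0.793), and for Ncan -0.10 (95% interval -0.27 to 0.08). Vcan had a difference of 0.30 (95% interval -0.06 to 0.66) and Tnr one of 0.21 (95% interval -0.08 to 0.51), and neither passed. Hapln1, which entered the test only here, had a difference of 0.18 with a 95% interval of -0.85 to 1.22.

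The untreated cultures of the 2 experiments were also compared. All 5 tested members passed between the controls of experiment 1 and those of experiment 2, where 43.6% of 13479 genes passed, 21.3% higher and 22.3% lower in experiment 1. Tnc was higher in experiment 1, 188 ± 27.8 CPM against 82.5 ± 7.19 CPM (SD, n = 6 each), a difference of 1.16 in log2 (SE 0.0805, edgeR adjusted p = 2.47e-22). Ncan was higher there by 0.23 on the log2 scale (edgeR adjusted p = 0.000419). Tnr was lower, 46.5 ± 2.79 CPM against 80.0 ± 7.96 CPM, a difference of -0.80 in log2 (SE 0.0956, edgeR adjusted p = 2.65e-11). Vcan was lower too, with -0.66 (SE 0.119, edgeR adjusted p = 4.03e-06), and so was Bcan, with -0.22 (SE 0.0604, edgeR adjusted p = 0.00238). For Tnc, Ncan, Tnr and Vcan the wells of the 2 control groups did not overlap, which held for 18.9% of genes. This comparison shares its control wells with both ethanol comparisons, and experiment, batch and culture cannot be told apart in it. Marker lists also differed between these controls. The summed fibroblast and mural cell level was between 750.1 and 1086 CPM in experiment 1 and between 553 and 737 CPM in experiment 2, with 3 of 10 genes higher and 4 lower. Acta2, a smooth muscle actin gene of that list singled out after its values were seen, had 369 CPM in experiment 1 and 24.04 CPM in experiment 2. Precursor markers summed to between 936 and 1053 CPM against 1132 to 1194 CPM, with 6 of 8 genes lower, and neuron markers to between 295 and 386 CPM against 432 to 483 CPM, with 3 of 7 lower. Microglia markers were lower in 8 of 8 tested genes and markers of committed precursors and newly formed oligodendrocytes in 4 of 8. Of 9 astrocyte markers 5 were higher and 3 lower, of 10 cycling cell markers 4 higher and 1 lower, and of 9 mature oligodendrocyte markers 1 was lower. The part of these cell types in the differences of the members was not tested.

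The remaining genes of these families were scarce. Summed over the 6 control wells of experiment 1, there were 16 counts of Acan, 79 of Hapln3, 46 of Hapln4, 10 of Tnn and 41 of Tnxb. Of these 5, only Hapln3 was tested at 30 mM, with a log2 fold change of -0.15 (95% interval -0.71 to 0.41), and none at 10 mM. In the RefSeq order each of the 4 lectican genes had a link protein gene as its neighbour with 0 protein-coding genes between, Bcan with Hapln2, Vcan with Hapln1, Ncan with Hapln4 and Acan with Hapln3. The pairs were not equal in level in these cultures: in the controls of experiment 1, Ncan had 6254 counts where Hapln4 had 46, and Vcan 305 where Hapln1 had 32.

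Genes that make, modify, bind or cut this matrix were then counted in fixed lists, members left out. At 30 mM, 70 of 87 such genes were tested, and 8 passed higher and 8 lower, with a median log2 fold change of 0.00 against 0.02 over all genes. At 10 mM, 68 were tested and 2 passed, both lower, with a median of -0.06 against -0.00 over all genes. Beside the 9.67% and 0.657% of all genes that passed at these doses, the shares of the lists were 22.9% and 2.94%. The lists were chosen with earlier results of these data known. The counts of each list below stand beside the same 9.67% and 0.657% over all genes.

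The enzymes that build the sugar chains did not pass. None of 13 tested genes for chondroitin sulphate chain synthesis passed at 30 mM and none of 12 at 10 mM in edgeR's test, and at an unadjusted p under 0.05 there was 1 at each dose. Of 10 genes for sulphation and other modification, Sulf2 rose at 30 mM (log2 fold change 0.28, edgeR adjusted p = 0.00885). Sulf2 is a sulphatase that trims heparan sulphate, and it was counted in this list though lecticans carry chondroitin sulphate. Chst12, a chondroitin sulphotransferase, fell (log2 fold change -0.72, edgeR adjusted p = 0.0463) from 14.4 to 8.64 CPM. None of these 10 passed at 10 mM in edgeR, and 0 had an unadjusted p under 0.05. Among 7 tested hyaluronan genes, 1 passed at 30 mM: Cd44, the cell surface receptor of hyaluronan, with a log2 fold change of 0.22 (edgeR adjusted p = 0.0271). Of 8 tested at 10 mM none passed in edgeR and 1 had an unadjusted p under 0.05, Cd44, with -0.12.

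Of the proteases that cut lecticans and their inhibitors, 5 of 14 passed at 30 mM, 2 higher and 3 lower. Adamts4, a metalloproteinase that cleaves brevican and is known in mature oligodendrocytes, rose from 106 to 151 CPM (log2 fold change 0.53, SE 0.107, edgeR adjusted p = 0.000624). Timp1, a metalloproteinase inhibitor, rose by 0.30 (edgeR adjusted p = 0.0102). Timp4, another inhibitor, fell by 0.37 (edgeR adjusted p = 0.0138), and the gelatinase gene Mmp2 fell by 0.51 (edgeR adjusted p = 0.0374), all on the log2 scale. The last of the 5, Mmp14, which activates the Mmp2 product, had a log2 fold change of -0.35 (edgeR adjusted p = 0.0481) and is named after its value was seen. At 10 mM, 1 of 13 passed, Adamts1, which also cleaves lecticans, with -0.36 (edgeR adjusted p = 0.0301). Adamts4 had a log2 fold change of 0.13 there (edgeR adjusted p = 0.618).

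Of 8 other chondroitin sulphate proteoglycans, 3 passed at 30 mM. Dcn and Bgn, the small leucine-rich proteoglycans of connective tissue, fell by 0.79 (edgeR adjusted p = 0.000203) and by 0.57 (edgeR adjusted p = 0.00644) on the log2 scale. Cspg5, the membrane proteoglycan neuroglycan C, rose by 0.20 (edgeR adjusted p = 0.0447). Dcn also fell at 10 mM, by 0.39 (edgeR adjusted p = 0.0184), the only gene of the list to pass there. Dcn is also among the fibroblast and mural cell markers counted below, and Cspg4 and Ptprz1 of this list are among the precursor markers.

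Of the receptors and binding partners, 5 of 17 passed at 30 mM and none of 17 at 10 mM. At 10 mM 3 had an unadjusted p under 0.05. Fn1, fibronectin, fell from 105 to 49.5 CPM (log2 fold change -1.07, SE 0.127, edgeR adjusted p = 4.97e-08). Nfasc and Nrcam, adhesion proteins of nodes of Ranvier and paranodes, rose by 0.49 (edgeR adjusted p = 3.15e-06) and by 0.28 (edgeR adjusted p = 0.00701). Itgb1, an integrin subunit, fell by 0.26 (edgeR adjusted p = 0.00776). Ptprd, a receptor phosphatase named after its value was seen, had a log2 fold change of 0.30 (edgeR adjusted p = 0.0276).

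**Figure D4:**
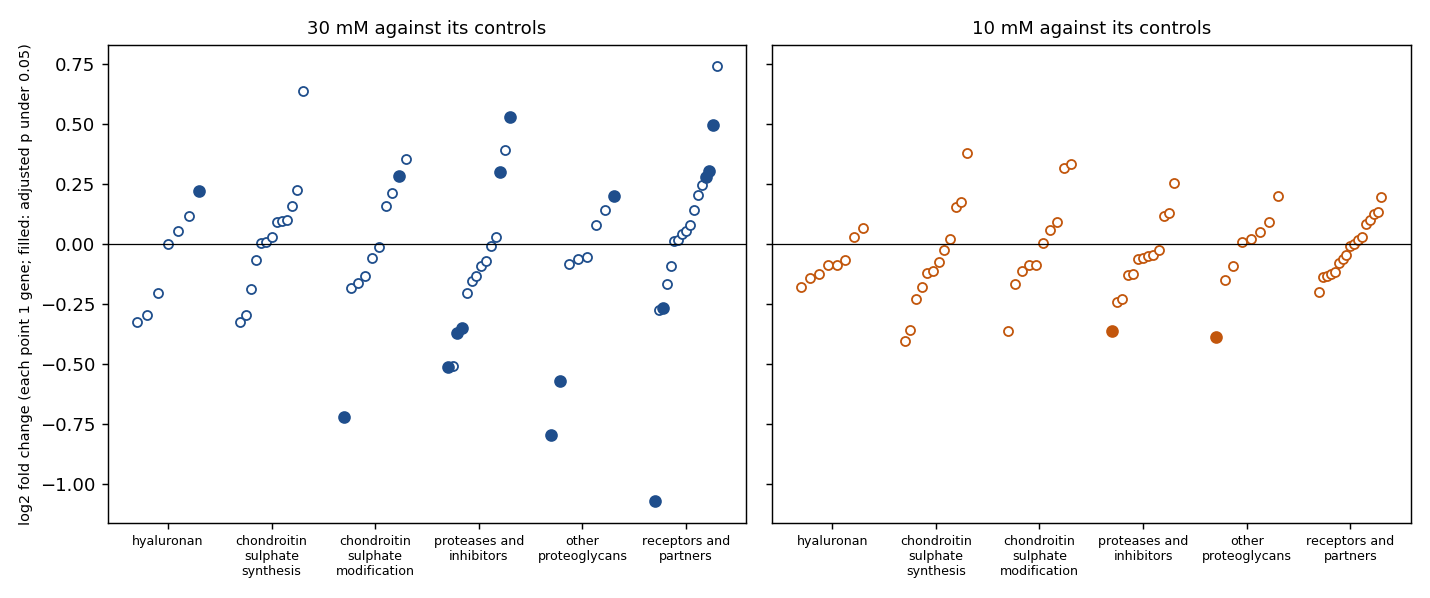
Log2 fold change of each tested gene in 6 fixed lists of matrix genes, members left out, at 30 mM (left) and 10 mM (right); each point is 1 gene, sorted by value within its list, and filled points passed an adjusted p of 0.05. At 30 mM 16 genes are filled, from Fn1 at -1.07 to Adamts4 at 0.53, and at 10 mM Adamts1 and Dcn are.

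Markers of the cell types that these cultures can hold were counted as well. Over all genes, 9.67% passed at 30 mM and 0.657% at 10 mM. Beside the fall of Tnc at 30 mM, 7 of 10 fibroblast and mural cell markers passed lower and 0 higher, with a summed level between 388 and 455 CPM against 750.1 to 1086 CPM in the controls. Acta2 was the largest part of that sum, with a mean of 122 CPM at 30 mM against 369 CPM in the controls. Lum, Pdgfrb and Rgs5 of this list changed less, with means of 10.3, 17.2 and 20.04 CPM against 11.3, 18.3 and 17.7 CPM. Of 10 cycling cell markers, 8 passed lower and 0 higher, with 735 to 933 CPM against 998 to 1186 CPM. Of 9 tested mature oligodendrocyte markers 6 passed higher at 30 mM, with 6511 to 11367 CPM against 4889 to 5914 CPM. Of 9 tested astrocyte markers 5 passed higher, with 5554 to 6828 CPM against 3988 to 5020 CPM. Of 8 precursor markers 1 passed, lower, and of 8 markers of committed precursors and newly formed oligodendrocytes none did in edgeR's test. At an unadjusted p under 0.05 there were 1 precursor and 3 committed markers. Of 6 tested microglia markers 1 passed, higher, and of 5 neuron markers 1, lower. At 10 mM, 3 of 9 mature oligodendrocyte markers passed higher, 2 of 8 fibroblast and mural cell markers lower, and 0 of 9 astrocyte markers in edgeR, of which 2 had an unadjusted p under 0.05. Of 8 microglia markers 1 passed there, Cx3cr1, higher (edgeR adjusted p = 0.0357), and of 6 neuron markers 2 did, Tubb3 higher (edgeR adjusted p = 0.0260) and Stmn2 lower (edgeR adjusted p = 0.0291). None of 8 precursor, 8 committed precursor and 10 cycling cell markers passed at 10 mM in edgeR, and 2, 1 and 0 of them had an unadjusted p under 0.05. The part of these cell types in the changes of Tnc and Bcan was not tested. Without replicate 1 at 30 mM, the well highest in mature oligodendrocyte markers, Bcan had a log2 fold change of 0.27 (edgeR adjusted p = 0.00338).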

How the data were processed

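Per the labels' protocols, RNA from 24 wells was sequenced by 3′ tag sequencing with single-end reads of 100 bases. The authors deposited raw counts per gene. The submitters' processing notes name cutadapt 1.18, STAR and the build GRCm39; the counter, the annotation, the use of strand and the treatment of PCR copies are not given in the sources used here, so counts of overlapping genes are uncertain. Of 55359 rows, 52083 had a symbol in a table of mouse gene names. Coordinates of whole genes are not printed, because the reference tables are on GRCm38.p6 and not on the submitters' build. The coordinates of the upstream stretches and the order of neighbouring genes are those of GRCm38.p6.

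Genes were tested with edgeR's quasi-likelihood test (edgeR 4.0.16, R 4.3.3), TMM, the filterByExpr filter (minimum count 10) and Benjamini-Hochberg adjustment over all genes tested, with a threshold of 0.05. The wells of a dose and its controls made 1 fit, all 24 wells the fit of the difference between doses, and the 2 control groups another. The fitting code was run on simulated counts with the same spread setting for every gene, so that check says nothing of these members in particular. Members, lists and tests were chosen with earlier results of these data known. Matrix list genes were named where they passed at either dose, up to 4 for each list and dose by p; Mmp14 and Ptprd, each the fifth of its list, and the markers named were added after their values were seen. The labels call the wells biological replicates and name no litter, so p-values measure the spread between wells. Intervals cover that spread. The floor of 3 counts is a fixed count expressed in CPM for each well and is not a measure of error. Alternatives used other scalings and filters, DESeq2 1.42.0, limma voom (limma 3.58.1), a joint fit, a replicate block, other thresholds and leaving out each well.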

Additional observations from a re-analysis of the deposited data

Results flagged for a closer look

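Of 28 series of 6 wells (7 members in 4 groups), 1 had a well far from the others, where chance gives 1.4. It was Tnc at 10 mM in replicate 1, with 101 CPM, where the other 5 wells had at most 79.8 CPM. Without that well, the log2 fold change of Tnc at 10 mM was -0.19 (edgeR adjusted p = 0.483) and did not pass.

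The change of Tnc differed between the doses in the interaction test, with a difference of -0.71 (30 mM minus 10 mM, edgeR adjusted p = 0.000883). All 6 wells at 30 mM were below all their controls. The difference passed in all 24 fits that left out a well, from -0.79 to -0.63, and in the 10 other settings tried. Mean Tnc was 188 CPM in the controls of experiment 1 and 82.5 CPM in those of experiment 2, so the 2 changes started from different levels. Dose and experiment cannot be told apart in this difference.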

How the results depend on the processing

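The 2 members called at 30 mM, the 1 called for the difference between doses and the 5 called between control groups kept their number in all fits that left out a well. At 10 mM the 1 member called, Bcan, ranged from 0 to 1 member in those fits, and was 0 with limma voom (adjusted p = 0.0521), with the replicate block (0.0658), in the joint fit of all wells (0.145) and at a threshold of 0.01. Replicate numbers are those of the sample descriptions. The titles number the controls of experiment 2 on from those of experiment 1. The numbers did not pair the wells: same-numbered wells had correlations from -0.13 to 0.21. Of the ethanol wells, only replicate 6 at 30 mM correlated best with the control of its own number. The replicate block gave 1208 genes at 30 mM, 68 at 10 mM and 461 for the difference, and changed no other call of a member. With no filter, Bcan between control groups had an adjusted p of 0.0565. Signs turned for Vcan at 30 mM without ethanol replicate 6 (-0.0156) or control replicate 5 (-0.0405), from -0.0405 to 0.102 over all such fits, and for the dose difference of Hapln1 with voom (-0.0402) and in fits that left out a well (-0.0768 to 0.363).

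Over all genes, the count at 10 mM, 89, was 58 with DESeq2, 21 in the joint fit, 28 at a threshold of 0.01, 150 at 0.1 and 37 to 95 without single wells. At 30 mM, 1280 became 641 at 0.01. The difference between doses, 481 genes, became 173 at 0.01, 854 at 0.1 and 329 to 759 without single wells. Upper quartile scaling gave 551 higher and 697 lower genes at 30 mM in place of 400 and 880, and 222 and 203 for the difference in place of 129 and 352. For these shifts the cause was not tested.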

Other observations

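Genes whose levels varied most like a member from well to well were listed from 8428 genes with a mean of at least 20 CPM, by Pearson r over 24 wells after each group's mean was removed. These are descriptions over wells that share library and depth effects. For each member the highest values over all those genes were taken, so they can be high by selection alone, and none was tested. For Bcan they were Rps24 (0.89), Eif1b (0.89) and Rpl8 (0.87). For Ncan they were Tnfrsf1a (0.90), Cd9 (0.89) and Pfn1 (0.89). Vcan was most like Slc22a23 (0.78), Anxa3 (0.74) and Spred2 (0.73), Tnr most like Ccar1 (0.78), Tmem9b (0.78) and Mid1ip1 (0.72), and Tnc most like Hk1 (0.77), Psmb6 (0.74) and Tln2 (0.73). For Hapln1 and Hapln2, with about 5 CPM each, such values rest on few counts, and the genes are not given. Their highest values were still 0.77 and 0.69, near those of Vcan, Tnr and Tnc. Values of this size therefore do not mark a gene as a partner of a member. Among the members themselves the highest r was that of Ncan with Tnc, 0.54.

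Hapln2 had 30 counts over the 6 controls of experiment 1 and 63 over those of experiment 2, and the wells did not overlap in CPM. The margin was small, with 4.75 CPM in the highest well of experiment 1 and 4.95 CPM in the lowest of experiment 2. In raw counts the groups met, as each had a well with 7 counts. Hapln2 did not pass the low-count filter. With no filter, its log2 fold change between the control groups was -1.13 (edgeR adjusted p = 0.00776). Such differences were common between these groups: of the 13479 genes tested after the filter, 43.6% passed and 18.9% had wells that did not overlap. Acan, which was also below the filter, had 16 and 51 counts in the same controls, and its wells did not overlap either.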
